A study of Mus musculus with 6 samples.

Results

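The 10 genes described here encode proteins that store, move or sense iron. They were chosen by their symbols in the gene count table, and the rule itself uses no measured value: the ferritin subunits Fth1 and Ftl1, the ferritin receptor Ncoa4, the transferrin receptor Tfrc, the reductase Steap3, the transporters Slc11a1, Slc11a2 and Slc40a1, and the iron regulatory proteins Aco1 and Ireb2. Earlier results of these data were known when the genes were chosen, so the comparisons below with all tested genes were not blind to the data. All 10 were found among the 46095 rows of the table and all 10 passed the filter on low counts. The libraries were made from BV2 cells, a mouse microglial line immortalized with a retrovirus that carries oncogenes, and the whole experiment therefore rests on a single line. The CON group was 3 libraries of cells that received no recombinant protein, and the sTREM-1 group was 3 libraries of cells exposed to recombinant soluble TREM-1 at 1 μg/mL for 6 h. The paper gives a serum-containing medium for BV2 cells in general, and no control with another protein was part of the comparison. The paper calls the control cells untreated, and it does not say whether they were given the vehicle or harvested at the same time. Nothing in the labels says whether the 3 libraries of a group came from separate cultures, so p-values measure the spread between these libraries.

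Iron enters most cells bound to transferrin through the transferrin receptor, is reduced by STEAP3 in the endosome and reaches the cytosol through DMT1, the product of Slc11a2. Surplus iron is stored in shells of ferritin heavy and light chains, is released when NCOA4 carries ferritin to the lysosome, and leaves the cell mainly through ferroportin, the product of Slc40a1. Macrophages and microglia also recover iron from the phagosome, where NRAMP1 (Slc11a1) pumps divalent metals, and from heme, which heme oxygenase opens. The iron regulatory proteins IRP1 (Aco1) and IRP2 (Ireb2) bind a hairpin in mRNA, the iron-responsive element (IRE), when iron is scarce. An IRE before the coding sequence blocks translation, and IREs behind it protect the mRNA from decay.

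The hairpins are shown because they divide the genes into those whose mRNA carries an IRE in the 5′ UTR, those with IREs in the 3′ UTR, and those with no match. Transcripts of GENCODE M21 on the mouse build GRCm38 were searched on the sense strand for an unpaired C, 5 bases, the loop CAGTGN and 5 more bases, in which the 5 bases on either side of the loop had to pair with each other, G with T allowed. Of the 10 genes, 4 had such a match in a UTR and 5 had one when 1 unpaired base was allowed on the 3′ side of the stem. Among all 21877 coding genes, 0.142% had a full match in a 5′ UTR and 0.590% in a 3′ UTR, and 0.233% and 1.07% had one with the unpaired base. The matches with their flanking bases are given here 5′ to 3′, with the loop in capitals.
Fth1 (5′ UTR, chr19:9982732-9982760, plus strand): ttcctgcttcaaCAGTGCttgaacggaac
Ftl1 (5′ UTR, chr7:45459779-45459807, minus strand): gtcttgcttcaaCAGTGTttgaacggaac
Slc40a1 (5′ UTR, chr1:45925465-45925493, minus strand): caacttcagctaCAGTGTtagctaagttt
Tfrc (3′ UTR, match 1, chr16:32631219-32631247, plus strand): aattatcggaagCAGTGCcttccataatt
Tfrc (3′ UTR, match 2, chr16:32631598-32631626, plus strand): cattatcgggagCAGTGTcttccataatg
Tfrc (3′ UTR, match 3, chr16:32631663-32631691, plus strand): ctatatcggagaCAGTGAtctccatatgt
Tfrc (3′ UTR, match 4, chr16:32631710-32631738, plus strand): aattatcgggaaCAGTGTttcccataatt
Slc11a2 (3′ UTR, with the unpaired base, chr15:100395152-100395181, minus strand): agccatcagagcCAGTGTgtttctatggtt

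Matches were present in 4 of 5 annotated coding transcripts of Fth1, 1 of 2 of Ftl1, 1 of 4 of Slc40a1, 1 of 3 of Tfrc and 1 of 6 of Slc11a2. The deposited counts are summed per gene, so forms with and without the element could not be separated. No match was found in a UTR of Ncoa4, Steap3, Slc11a1, Aco1 or Ireb2, which says only that these letters are not there.

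The libraries held 40070633 to 45877107 counts. Of 10 microglial and macrophage markers, 6 had a mean of at least 10 CPM, the count after scaling for library size, among them Itgam, Csf1r, Tyrobp and Cd68, while Cx3cr1, P2ry12 and Tmem119 were under 2 CPM and Aif1 was listed at 0. The summed level of these markers was 2563 to 2592 CPM in the CON libraries and 2834 to 2899 CPM in the sTREM-1 libraries. Csf1r alone went from 521 to 753 CPM, and its part in the results on iron genes was not tested. Libraries of whole cultures do not tell fewer cells of a kind from less RNA per cell. Of the 5 erythroid markers, which would show blood in the sample, 4 had 0 counts, and the summed neuronal and astrocyte markers stayed under 0.5 CPM in every library. Oligodendrocyte markers summed to 7.17 to 7.84 CPM in the CON and 5.63 to 6.70 CPM in the sTREM-1 libraries, and those of endothelial cells and fibroblasts to 1.37 to 1.68 and 1.23 to 1.54 CPM. All 14120 genes that passed the filter were tested together by the quasi-likelihood method of edgeR. A gene is said to have risen or fallen where its p-value, adjusted by Benjamini and Hochberg over all of them, was under 0.05, and SE is the standard error of the log2 fold change.

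Compared with the CON group, 5 of the 10 iron genes rose, 1 fell and 4 did not pass the test. The ferritin genes, by far the most abundant of the 10, were nearly level. The ferritin receptor Ncoa4 rose by 22.8%, the metal transporter Slc11a1 by 13.1%, the endosomal reductase Steap3 by 13.4%, Slc11a2 by 7.08% and the transferrin receptor Tfrc by 6.43%, whereas the iron exporter Slc40a1 fell by 21.5%. The 6 called genes are to be read against 30.5% of all tested genes called, and against 47.6% of the 6308 genes at or above the mean level of Steap3, the lowest of the 10, since abundant genes pass more often. Genes that rose made up 16.5% of all tested genes and those that fell 14.1%, and among the 6308 abundant genes the shares were 26.6% and 21.0%. With upper-quartile factors in place of TMM the balance over all genes turned, from 2324 higher and 1988 lower to 1977 and 2383, while the 10 genes still had 5 higher and 1 lower. Only Ncoa4 and Slc40a1 changed by at least 1.2-fold, where 10.7% of all tested genes were called with such a change. The median log2 fold change of the 10 genes was 0.08, against -0.0017 over all tested genes, and the median absolute log2 fold change was 0.09 against 0.13. For 7 of the 10 genes the libraries of the groups did not overlap, against 40.7% of all tested genes and 56.3% of the abundant genes. The changes were thus small, and among the 10 genes the exporter fell while Tfrc, Steap3 and Slc11a2 rose. The uptake side of this contrast did not extend to the wider list described below. There, 3 of 11 tested genes of uptake and trafficking were higher and 3 lower. Of the 3 tested genes of the export role in that list, 2 were lower and 1 higher.

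**Figure D1:**
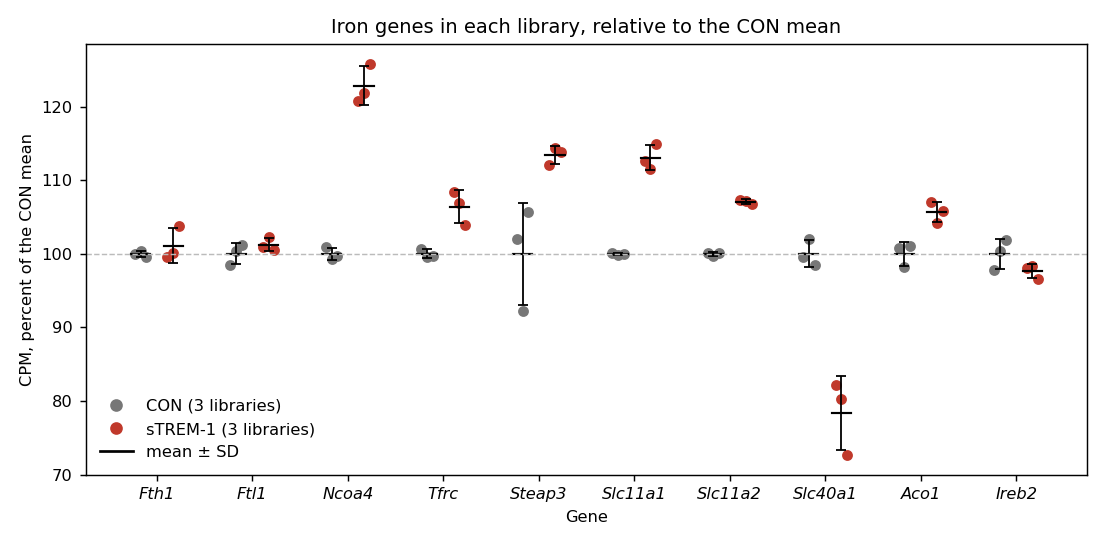
Level of each of the 10 iron genes in each library, as CPM in percent of the mean of the CON libraries (y axis), by gene (x axis), with grey points for the 3 CON and red points for the 3 sTREM-1 libraries and bars for mean ± SD. The red points of Ncoa4 and Slc40a1 lie farthest from the line at 100, on opposite sides, while those of Fth1 and Ftl1 overlap the grey points.

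Fth1 encodes the ferritin heavy chain, which oxidizes iron as it enters the shell, and lies on chromosome 19 of GRCm38 from 9980598 to 9985098. It had 11247, 11283 and 11197 CPM in CON replicates 1, 2 and 3 and 11187, 11249 and 11671 CPM in the sTREM-1 replicates. It ranked number 4 among all tested genes. The groups overlapped, with sTREM-1 replicate 3 above the other libraries. The log2 fold change was 0.02 (SE 0.02, adjusted p = 0.472 by edgeR), with a 95% interval of the difference from -1.02% to 3.33%.

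Ftl1 encodes the light chain, which favours mineral formation inside the shell, and lies on chromosome 7 from 45457944 to 45459884. Its level was 4150, 4233 and 4266 CPM in the CON libraries and 4255, 4311 and 4239 CPM after sTREM-1. The groups overlapped here too, and the log2 fold change was 0.02 (SE 0.02, adjusted p = 0.464 by edgeR), with a 95% interval from -1.09% to 3.62%. The direction of Fth1 and of Ftl1 turned when upper-quartile factors replaced TMM, so neither has a direction. Together the ferritin genes took 1.55% ± 0.00599 of all counts in the CON group and 1.55% ± 0.0193 after sTREM-1 (SD, n = 3 each). Mouse chromosomes hold processed copies of ferritin genes, and the rows of such copies in the table, Fth-ps2 and Fth-ps3 for the heavy chain and Ftl1-ps1, Ftl1-ps2 and Ftl2-ps for the light chain, held at most 0.00350% and 0.724% of the count of their parent. Reads that were divided among copies before counting cannot be recovered from the table. Ftl1 also shares exon sequence with Gm10252, annotated on the other strand, and with a miRNA gene, neither of which has a row in the table.

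Ncoa4, on chromosome 14 from 32159865 to 32179855, encodes the receptor that delivers ferritin to autophagosomes. Its level was 38.5, 37.9 and 38.1 CPM in the CON libraries and 46.1, 46.5 and 48.0 CPM in the sTREM-1 libraries. All sTREM-1 libraries lay above all CON libraries by far more than the spread within either group. The log2 fold change was 0.30 (SE 0.04, adjusted p = 4.8e-06 by edgeR). Ncoa4 had the largest rise of the 10 genes, while the mRNAs of its cargo were level.

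Among the genes of transferrin uptake, Tfrc encodes the receptor that brings iron-loaded transferrin into the endosome and lies on chromosome 16 from 32608920 to 32632794. Its level was 426, 421 and 422 CPM in the CON libraries and 458, 452 and 439 CPM in the sTREM-1 libraries. The groups did not overlap, but sTREM-1 replicate 3 stood closest to the CON libraries. The log2 fold change was 0.09 (SE 0.02, adjusted p = 0.00325 by edgeR). Steap3, on chromosome 1 from 120190757 to 120272705, encodes the reductase that turns ferric into ferrous iron in the endosome. Its level was 28.6, 25.9 and 29.7 CPM in the CON libraries and 31.5, 32.1 and 31.9 CPM after sTREM-1. The CON libraries were more widely spread than the sTREM-1 libraries, and CON replicate 2 was the lowest. The log2 fold change was 0.18 (SE 0.06, adjusted p = 0.0131 by edgeR), and without CON replicate 2 it was 0.13 with an adjusted p of 0.126, so the rise of Steap3 rests on that library.

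The proton-coupled metal transporters are a pair of related genes. Slc11a1 encodes NRAMP1 of the phagosome and late endosome of macrophages and lies on chromosome 1 from 74375195 to 74386062. It had 302, 301 and 301 CPM in the CON libraries and 339.6, 336 and 346 CPM in the sTREM-1 libraries. The CON libraries were almost identical and all sTREM-1 libraries lay above them. The log2 fold change was 0.18 (SE 0.02, adjusted p = 8.0e-07 by edgeR). Slc11a2 encodes DMT1, which passes ferrous iron out of the endosome, and lies on chromosome 15 from 100387898 to 100425072. Its level was 173, 172 and 173 CPM in the CON libraries and 185, 185 and 184 CPM after sTREM-1. Both groups were tight and did not overlap, so that a log2 fold change of 0.10 passed the test (SE 0.03, adjusted p = 0.00486 by edgeR). An exon of Slc11a2 overlaps Gm5475 on the other strand, which held 6 counts over the 6 libraries.

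Slc40a1 encodes ferroportin, the exporter of cellular iron, and lies on chromosome 1 from 45908068 to 45926523. Its level was 58.4, 59.8 and 57.7 CPM in the CON libraries and 48.2, 47.1 and 42.6 CPM in the sTREM-1 libraries. All sTREM-1 libraries lay below all CON libraries, with sTREM-1 replicate 3 the lowest. The log2 fold change was -0.35 (SE 0.05, adjusted p = 4.2e-07 by edgeR), and its 95% interval ran from -26.4% to -16.3%. Without sTREM-1 replicate 3 the log2 fold change was -0.30. It was the only one of the 10 genes that fell, and it has an IRE match in the 5′ UTR, as have Fth1 and Ftl1, which did not pass the test. The genes with matches in the 3′ UTR, Tfrc and Slc11a2, both rose by less than 10%.

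The iron regulatory proteins themselves did not pass the test. Aco1, on chromosome 4 from 40143081 to 40198338, encodes IRP1, which is a cytosolic aconitase when it holds an iron-sulfur cluster. Its level was 50.5, 49.2 and 50.7 CPM in the CON libraries and 53.7, 52.3 and 53.1 CPM in the sTREM-1 libraries. The groups did not overlap, yet the log2 fold change of 0.08 missed the threshold (SE 0.04, adjusted p = 0.154 by edgeR, 95% interval from -0.308% to 12.04%). Ireb2, on chromosome 9 from 54863789 to 54912530, encodes IRP2, which is degraded when iron is plentiful. It had 152, 156 and 158 CPM in the CON libraries and 152, 152 and 149.9 CPM after sTREM-1. The groups overlapped and the log2 fold change was -0.03 (SE 0.03, adjusted p = 0.413 by edgeR, 95% interval from -6.21% to 1.70%). IRP activity is set largely in the protein, which was not measured by these counts.

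Levels of different genes were compared as CPM per kilobase of the principal transcript, which treats each gene as 1 transcript of that length. Fth1 had 12102 ± 46.8 and Ftl1 4356 ± 61.9 CPM per kilobase in the CON group (SD, n = 3), far above the other genes. Slc11a1 followed at 130.2 ± 0.132, Tfrc at 86.5 ± 0.537, Slc11a2 at 57.0 ± 0.133 and Ireb2 at 26.9 ± 0.552 CPM per kilobase. At the low end of the CON group stood Slc40a1 with 17.4 ± 0.318, Aco1 with 13.1 ± 0.208, Ncoa4 with 11.4 ± 0.0965 and Steap3 with 9.57 ± 0.665 CPM per kilobase. Each neighbour in this order was separated from the next by more than the sum of their SDs. After sTREM-1 the order of the first 6 genes was the same. Ncoa4 with 14.0 ± 0.305, Aco1 with 13.8 ± 0.181 and Slc40a1 with 13.6 ± 0.878 CPM per kilobase (SD, n = 3) were then each closer to the next than the sum of their SDs. Ferroportin mRNA thus moved from above Aco1 and Ncoa4 to a level not separated from theirs by that measure.

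**Figure D2:**
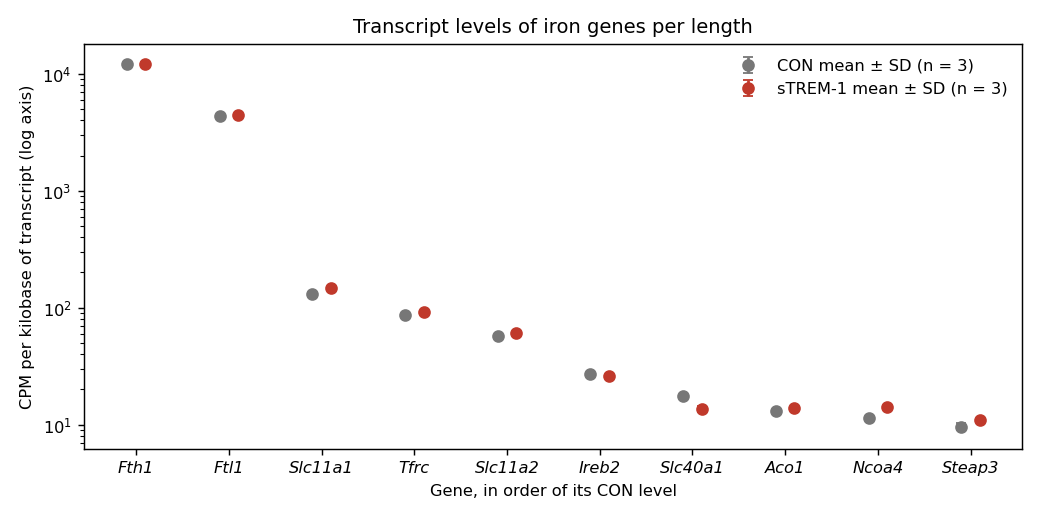
Mean level in CPM per kilobase of the principal transcript (y axis, log scale) of the 10 iron genes in order of their CON level (x axis), with grey points for the CON and red points for the sTREM-1 group (n = 3 each, bars ± SD, mostly hidden by the points). Ferritin stands above the other genes, and the points of Slc40a1, Aco1 and Ncoa4 draw level in the sTREM-1 group.

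Ratios of counts within a library do not depend on the scaling between libraries and are given as a description. The heavy to light chain count ratio was 2.67 ± 0.0429 in the CON group and 2.66 ± 0.0778 in the sTREM-1 group, and the libraries overlapped (SD, n = 3 each). The Slc40a1 to Tfrc ratio, exporter against importer, was 0.137, 0.142 and 0.137 in the CON libraries and 0.105, 0.104 and 0.0969 after sTREM-1. Its mean was 0.736 times that of the CON group, and the groups did not overlap. The ratio of Slc11a1 to Slc11a2 went from 1.75 ± 0.00273 to 1.85 ± 0.0331, and that of Aco1 to Ireb2 from 0.323 ± 0.00862 to 0.350 ± 0.00606 (SD, n = 3 each), again without overlap. Neither Aco1 nor Ireb2 passed the test by itself, and how often ratios of other gene pairs separate in this way was not tested. The count of Tfrc per 1000 ferritin counts was 27.3 ± 0.273 in the CON group and 28.8 ± 1.05 after sTREM-1, with overlapping libraries.

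**Figure D3:**
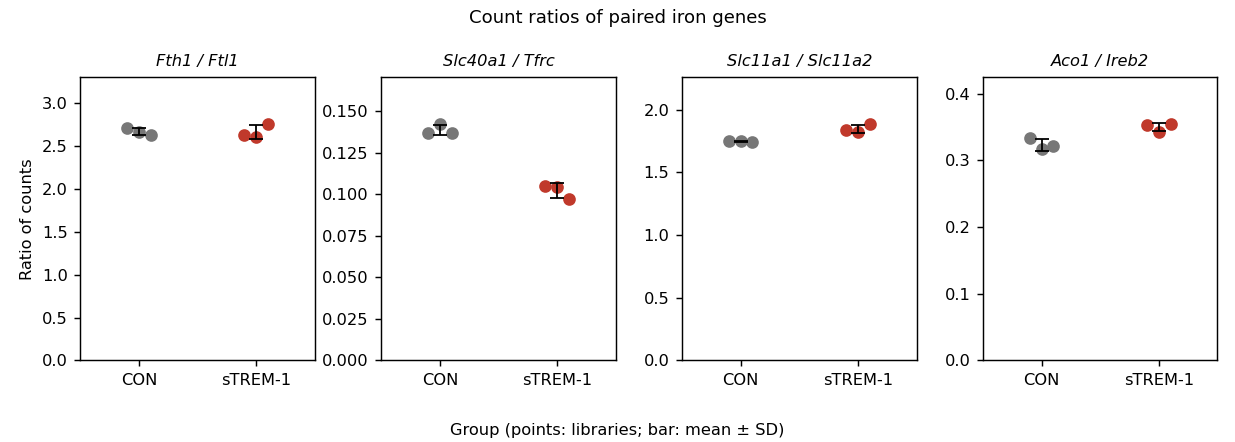
Ratios of the counts of gene pairs (y axes, from 0) in the 3 CON and the 3 sTREM-1 libraries (x axis), with points for libraries and bars for mean ± SD. Fth1 to Ftl1 is level, Slc40a1 to Tfrc is lower after sTREM-1, and the other pairs are slightly higher.

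A wider list of 92 genes of iron handling, in 10 roles, was read in the same fit. All 92 had a row, 73 were tested, 17 of these rose and 14 fell, or 15 and 17 with upper-quartile factors. Their called share of 42.5% stands between the 30.5% of all tested genes and the 47.6% of genes as abundant as the 10 described above, and their median log2 fold change was 0.03. Of the 19 untested genes, 7 had 0 counts in every library, among them Cd163, the hemoglobin scavenger receptor, Ltf, lactoferrin, and Ftmt, mitochondrial ferritin. A count of 0 allows up to 3 counts, at most 0.0749 CPM per library, and this limit covers counting error only. Hamp, which encodes the ferroportin-degrading hormone hepcidin, had 1 count over all 6 libraries.

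Of the 5 genes placed under heme degradation and heme transport, 4 rose and none fell. Among all tested genes 16.5% rose, and among the abundant genes 26.6%. The heme exporter gene Flvcr1 and Abcg2, a pump that accepts porphyrins, were placed under export instead, and both fell. Hmox1, the inducible heme oxygenase that frees iron from heme, had 617, 619 and 621 CPM in the CON libraries and 732, 729 and 755 CPM after sTREM-1. The groups were far apart, with a log2 fold change of 0.26 (SE 0.02, adjusted p = 8.5e-11 by edgeR). Slc48a1, which encodes the heme transporter HRG1 of the phagolysosome, had 104 CPM in every CON library and 142, 148 and 156 CPM in the sTREM-1 libraries, and its log2 fold change was 0.51 (SE 0.03, adjusted p = 2.7e-13 by edgeR). The remaining genes of this role are named after their values were seen. Hmox2, the constitutive oxygenase, and Blvrb, a biliverdin reductase, rose with log2 fold changes of 0.24 and 0.28, and Blvra had 0.08 (adjusted p = 0.127 by edgeR). The median log2 fold change of the 5 genes was 0.26, against -0.0017 over all tested genes.

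Other uptake and trafficking genes went both ways, with 3 of 11 tested genes higher and 3 lower. These counts and those of the roles that follow stand beside 16.5% higher and 14.1% lower of all tested genes. Slc39a14, which encodes the ZIP14 importer of iron not bound to transferrin, had 118, 113 and 115 CPM in the CON libraries and 94.5, 90.4 and 86.5 CPM in the sTREM-1 libraries. Lcn2, the siderophore-binding lipocalin, had 262, 268 and 258 CPM and then 182, 185 and 199.8 CPM. Both fell without overlap of the groups, with log2 fold changes of -0.35 and -0.48. Lrp1, a receptor that takes up heme bound to hemopexin among many other ligands, rose with a log2 fold change of 0.20, and Exoc6, an exocyst subunit known for its part in transferrin recycling, rose with one of 0.24. Its level was 31.5 CPM in CON replicate 1 and 38.2 and 39.0 CPM in the other CON libraries, and without that replicate its log2 fold change was 0.15 (adjusted p = 0.0303 by edgeR). Transferrin itself, Trf, was not called, with 44.3 ± 1.51 CPM in the CON group and 46.2 ± 0.788 CPM after sTREM-1 (adjusted p = 0.356 by edgeR).

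In the export role, all 3 tested genes were called, where 30.5% of all tested genes and 47.6% of the abundant ones were. Cp, whose product ceruloplasmin oxidizes the iron that ferroportin releases, had 18, 17.7 and 19.3 CPM in the CON libraries and 22.6, 22.9 and 21.5 CPM after sTREM-1, and rose with a log2 fold change of 0.29. The heme exporter gene Flvcr1, which the table lists under its older symbol Mfsd7b, fell by 8.37%, and Abcg2, a pump that accepts porphyrins among other substrates, fell by 15.9%. The oxidase and the exporter it serves thus differed in direction. Among the ferrireductases, Steap1 had a log2 fold change of -0.63 at 1.95 to 3.48 CPM and Cyb561a3 one of 0.19.

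Of the 5 cytosolic chaperone and ubiquitin ligase genes, 1 rose. Fbxl5, the iron-sensing subunit of the ligase that removes IRP2, had 62.4, 59.2 and 63.6 CPM in the CON libraries and 67.2, 65.0 and 68.5 CPM after sTREM-1 (log2 fold change 0.12, adjusted p = 0.0268 by edgeR). The groups lay close together, and its adjusted p was 0.164 without CON replicate 2, 0.0802 without sTREM-1 replicate 1, 0.113 without sTREM-1 replicate 3 and 0.0712 with upper-quartile factors. The iron chaperones Pcbp1 and Pcbp2, named after their values were seen, had log2 fold changes of -0.0013 and -0.016 and were not called, and the sign of Pcbp1 turned without the filter on low counts.

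In the mitochondrion, Slc25a37, which encodes the iron importer mitoferrin-1, had 133, 136 and 134 CPM in the CON libraries and 107, 107 and 109 CPM in the sTREM-1 libraries. The groups were far apart, and its log2 fold change was -0.32 (SE 0.03, adjusted p = 7.9e-10 by edgeR). Of the 19 tested genes of mitochondrial import and iron-sulfur cluster assembly, 3 rose and 4 fell. Nfs1, the cysteine desulfurase, and Iba57, a late assembly factor, rose with log2 fold changes of 0.19 and 0.37, while Hspa9, a general mitochondrial chaperone that also serves cluster transfer, fell with one of -0.23. In the cytosolic cluster machinery, 2 of 10 genes rose, Nubp2 and Mms19 with log2 fold changes of 0.24 and 0.17, and Ciapin1 fell with one of -0.30.

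Heme synthesis was mostly not called, with 1 of 9 tested genes higher and 1 lower. Alas1, the first enzyme of the pathway outside red cells, had a log2 fold change of 0.14 (adjusted p = 0.00512 by edgeR), or 0.10 with an adjusted p of 0.0687 without sTREM-1 replicate 3. Tmem14c, a porphyrin transporter, had one of -0.19. Of the BMP pathway genes that govern hepcidin in the liver, 4 were tested, and Neo1 and Smad7 fell with log2 fold changes of -0.69 and -0.43 at group means of 7.40 to 11.9 CPM.

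**Figure D4:**
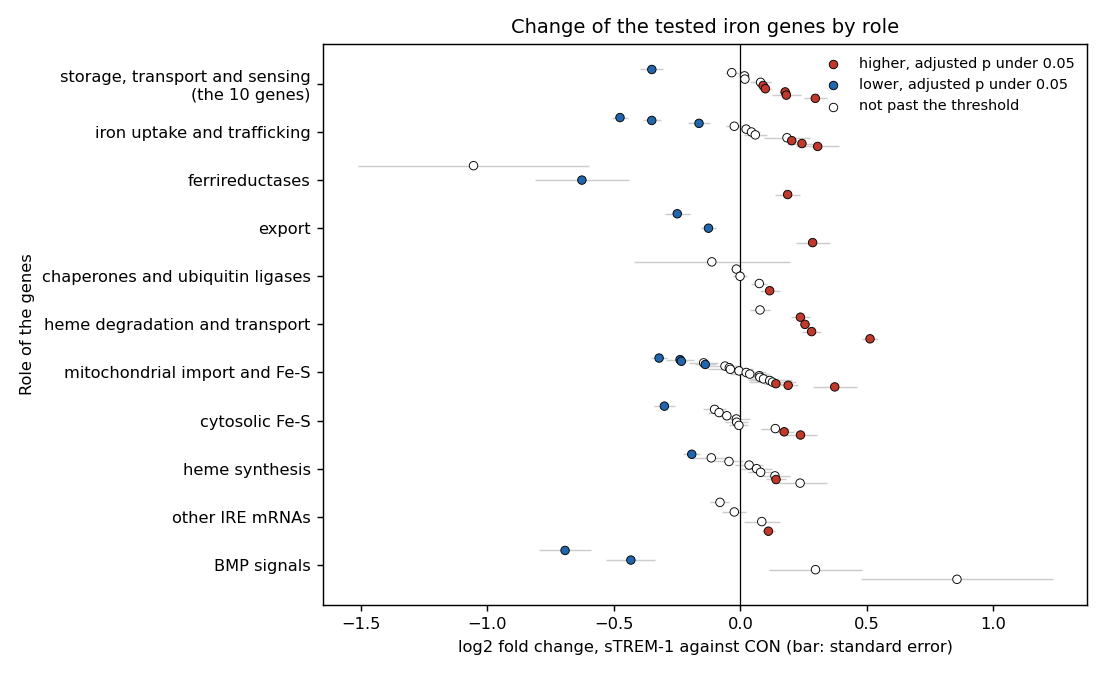
Log2 fold change of sTREM-1 against CON (x axis) for the 10 iron genes and the 73 other tested iron genes by role (y axis), with bars for standard errors, red points for genes that rose, blue points for genes that fell and open points for genes that did not pass the test. Heme degradation and transport holds red points and 1 open point, while most other roles hold red and blue points. The heme exporter gene Flvcr1 is among the blue points of the export role.

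The pattern over the 6 libraries was also compared with that of 9053 other genes of at least 10 CPM, as the root mean square difference of log2 ratios to the CON mean. Closest to Slc40a1 were 1110002J07Rik at 0.019, Tvp23b at 0.021 and Cd83 at 0.033, with log2 fold changes of -0.34, -0.35 and -0.36. Closest to Ncoa4 were Flna at 0.0095, Klhdc3 at 0.012 and Hsp90ab1 at 0.013, with log2 fold changes of 0.30, 0.30 and 0.31. With 6 libraries in 2 groups, such likeness rests mostly on the difference between the groups.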

How the data were processed

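RNA of 3 CON and 3 sTREM-1 libraries of BV2 cells was sequenced. The methods give another number of samples per group for the sequencing than the labels, and the labels and the table were followed. What the authors deposited is a table of counts, whole numbers per gene symbol that were not normalized. Their methods name FastQC for quality, RSEM for quantification and edgeR for differential expression. The submitters' processing notes name HISAT2 2.0.4 and the human builds hg19 and GRCh38, although the symbols are those of mouse. Annotation and strand are not given in the sources used here, so reads of copies and overlapping genes may have been divided or lost.

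Genes were kept by filterByExpr at a minimum count of 10, which left 14120, and TMM factors scaled the libraries. The quasi-likelihood fit (edgeR 4.0.16, R 4.3.3) held the group alone. SEs were derived from each gene's fold change and F value, and CPM values use TMM-scaled library sizes. The biological coefficient of variation was 3.99%. The steps were also run on counts simulated from the means and dispersions of these libraries, and the outcome is not given here. Such a run cannot show whether the libraries came from separate cultures. Positions, transcript lengths (the principal transcript of lowest identifier) and IRE matches come from GENCODE M21; the count table holds no coordinates.

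The 10 genes and the wider list were chosen with earlier results of these data known. Of the wider list, the genes named are at most 2 per direction and role, of smallest adjusted p among those called without overlap of the groups, those called at 1.5-fold or more, and Hmox1, Fbxl5, Hamp, Cp and Trf. A gene that this rule names is not reported here. No library repeated another: the chi-square per gene between libraries of a group was 3.47 to 5.02, above the 1 that counting alone gives. Alternatives were RLE and upper-quartile factors, no filter, at least 10 counts in every library, a replicate block, a 1.2-fold minimum, the exact test of edgeR, DESeq2 1.42.0, ferritin copies added, and each library left out.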

Additional observations from a re-analysis of the deposited data

How the results depend on the processing

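Of the 10 genes, 6 were called in the fit reported, and 5 to 6 in the fits that each left out 1 library; Steap3 was the gene lost. In the other iron genes 31 were called, 29 to 33 with a library left out, and 4312 of all tested genes, or 3608 to 3863. With at least a 1.2-fold change the counts were 2 of the 10 genes, 12 of the other iron genes and 1517 of all genes, since most changes were smaller than that. The labels give both groups the replicate numbers 1 to 3, and deviations of same-numbered libraries correlated at -0.018, -0.033 and -0.014 across genes; the numbers were therefore not read as pairs. With the number as a replicate block 4613 genes, 6 of the 10 genes and 34 of the other iron genes were called. Fth1 and Ftl1 had log2 fold changes of -0.0048 and -0.0032 with upper-quartile factors, and Fth1 ran from -0.0047 without sTREM-1 replicate 3 to 0.027 without sTREM-1 replicate 1. Pcbp1 had 0.0014 with no filter on low counts and ran from -0.026 to 0.012 with a library left out. None of these passed the test, and the cause was not tested. Over the 13 alternative fits, Slc40a1 ran from -0.39 to -0.30 and Ncoa4 from 0.28 to 0.31 on the log2 scale, and both were called in all 13, as were Tfrc, Slc11a1 and Slc11a2. Steap3 was called in 12. Adding the ferritin copies gave heavy to light ratios of 2.65 in both groups, and leaving out a library gave 2.65 to 2.69 in the CON and 2.62 to 2.69 in the sTREM-1 group. What lower depth would change was not tested.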

Other observations

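The rows of light chain ferritin copies held a slightly smaller share of the Ftl1 count after sTREM-1. They held 0.708%, 0.724% and 0.709% of the Ftl1 count in the CON libraries and 0.691%, 0.701% and 0.676% in the sTREM-1 libraries, so that the groups did not overlap although Ftl1 was level. The nearest libraries of the groups stood at 0.708% and 0.701%, and the counting error of these shares was not estimated. Groups that did not overlap were also found for 40.7% of all tested genes. Where the reads of these rows came from was not tested. Among the sTREM-1 libraries, replicate 3 had the highest level of Fth1, Ncoa4 and Slc11a1 and the lowest of Ftl1, Tfrc, Slc40a1, Slc11a2 and Ireb2. For Aco1 and Steap3 it lay between the other sTREM-1 libraries. In it, Hmox1 and Slc48a1 were also highest and Slc39a14 lowest, genes picked from the wider list after their values were seen. With 3 libraries per group, any of them is often the highest or lowest, and the share over all tested genes was not computed. Replicate 3 also had the smallest total, 40070633 counts, and a link to these levels was not tested.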
